A study of Mus musculus with 20 samples.

Results

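Mouse CD8 T cells that had received antigen, costimulation and IL-12 for 48 h were compared with the naive cells from which such cultures start. The comparison rests on 6 of the 20 arrays of the series, chosen by their titles: 3 arrays of cells cultured with Ag-B7+IL12 for 48 h and 3 arrays of naive cells at 0 h. It covers 8251 named genes, of which 6279 passed a filter on dim signals. The cells came from lymph nodes of OT-1 T cell receptor transgenic mice of the C57Bl6 strain, 6 to 8 weeks old, and were enriched for CD8 cells with low CD44 by removing other cells. All cells of both groups therefore carry the same transgenic receptor, whose target is a peptide of ovalbumin held by the MHC class I molecule H-2Kb.

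The Ag-B7+IL12 cells were stimulated on latex microspheres that carried the peptide complex and the costimulatory ligand B7-1, with recombinant mouse IL-12, and with human IL-2 as in every culture. The naive cells were not cultured and had no stimulating agent. No culture lacked antigen, so antigen, B7-1, IL-12, IL-2 and time in culture cannot be told apart in this comparison. Where a difference is to be read against antigen and B7-1 alone, 4 arrays of Ag-B7 cells at 48 h and 3 arrays of Ag-B7+IFNa/b cells at 48 h are given beside it. Single arrays of Ag-B7+IL12 cells at 24 h and at 72 h show the levels at other times. The labels call the replicates biological and do not say how many mice each came from.

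A naive CD8 T cell is small and does not divide. It recirculates through lymph nodes, is kept alive by IL-7 and the T cell receptor, and keeps its cell cycle and much of its biosynthesis low through factors such as Klf2. Antigen with B7-1 starts growth and division, and an inflammatory cytokine, IL-12 or type I interferon, gives a further signal on which effector function and memory depend. IL-12 acts through the receptor chains Il12rb1 and Il12rb2 and the transcription factor Stat4.

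Values are MAS5 signal intensities, each array scaled by the authors to a common mean, and a difference is log2 of intensity plus a pseudocount, Ag-B7+IL12 minus naive, with the standard error of limma after ±. A gene is called at an adjusted p below 0.05 in that fit. The Ag-B7+IL12 arrays correlated with each other at 0.948 to 0.96 and the naive arrays at 0.827 to 0.932 over genes, and the median SD between replicates on the log2 scale was 0.273 and 0.442. Naive replicates 2 and 3 had actin 3'/5' probe ratios of 2.06 and 1.61, a ratio that rises as RNA degrades, against 1.06 to 1.07 on the Ag-B7+IL12 arrays and 1.13 on naive replicate 1. The Gapdh 3'/5' ratios lay closer together, at 0.733, 0.946 and 0.872 on naive replicates 1, 2 and 3 and 0.773 to 0.855 on the Ag-B7+IL12 arrays. Naive replicate 3 had the highest mean correlation with the other naive arrays (0.900, against 0.880 for replicate 1 and 0.848 for replicate 2). The median intensity was 247 to 292 on the Ag-B7+IL12 arrays and 364 to 507 on the naive arrays. The 34 control probe sets without a target were lower on the Ag-B7+IL12 arrays for 27, with a median difference of -0.76. Counts are therefore also given without naive replicates 2 and 3 together, where that moves them by more than 1.5 times. That setting leaves 1 naive array, so calls can be lost in it through the smaller number of arrays alone. A call lost there does not show that the difference rested on RNA quality. The part of naive replicates 2 and 3 in the differences was not tested beyond this.

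Most tested genes differed between the groups. Of the 6279 genes, 3694 were called (58.8%), 1559 higher (24.8%) and 2135 lower (34.0%) in Ag-B7+IL12 cells, 3995 (63.6%) had an unadjusted p below 0.05, and without naive replicates 2 and 3 the call was made for 2212, of which 1092 were lower. A called difference of at least 2-fold was found for 2778 genes (44.2%), 1104 higher genes (17.6%) and 1674 lower genes (26.7%), and one of at least 8-fold for 97 higher genes (1.54%) and 54 lower genes (0.86%). The arrays of the 2 groups did not overlap for 1610 higher genes (25.6%) and 2186 lower genes (34.8%), so an absence of overlap is common in this comparison. The median difference over all genes was -0.27. The sign of smaller differences rests on how the arrays are scaled. The median over all genes became -0.002 after quantile normalization, 0.34 after centring each array on its median and 1.31 after centring on the bacterial and phage hybridisation controls (spike-in scaling), and the split of calls became 3440 higher and 84 lower under spike-in scaling and 2402 higher and 920 lower under median centring. The hybridisation controls were brighter on the naive arrays by 1.58 on the log2 scale, so a fall of a gene by less than this turned positive under spike-in scaling. Their mean log2 intensity was 12.44, 13.17 and 12.42 on the Ag-B7+IL12 arrays, against 13.39, 14.86 and 14.53 on the naive arrays, so the distance rests mostly on naive replicates 2 and 3. The cause of this difference, in labelling, hybridisation or scaling, was not tested. All directions below are relative to the mean of the array, as deposited, and counts under spike-in scaling stand beside them.

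**Figure D1:**
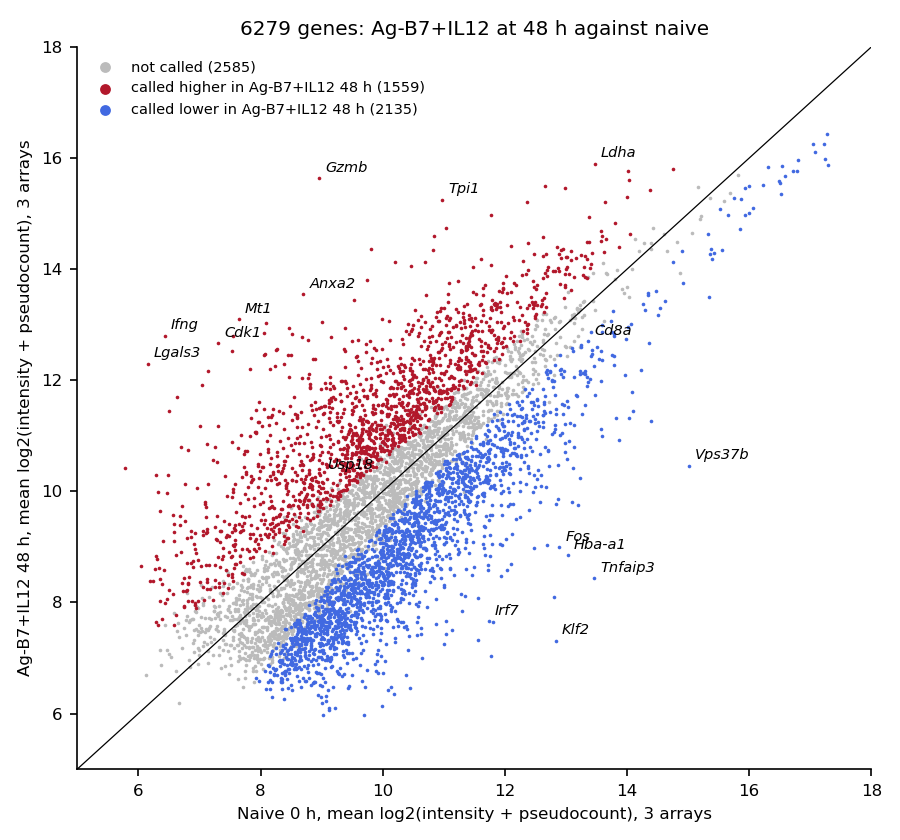
Mean log2(intensity + pseudocount) of 6279 genes in Ag-B7+IL12 cells at 48 h (y axis, 3 arrays) against naive cells (x axis, 3 arrays), with called genes in red (1559 higher) and blue (2135 lower) and the line of equal level in black. Gzmb, Ifng, Lgals3 and Cdk1 lie far above the line and Klf2, Tnfaip3 and Irf7 far below it; under spike-in scaling 3440 genes were called higher and 84 lower.

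Granzyme B showed the largest rise of the 6279 genes. Gzmb, the serine protease of cytotoxic granules, had intensities of 41446, 53131 and 60005 on the Ag-B7+IL12 arrays, against 244, 583 and 632 on the naive arrays. Every stimulated array was far above every naive one. The difference was 6.68 ± 0.28 (102-fold, limma adjusted p = 5.23e-11). Of 14 tested genes of the cytotoxic machinery, 8 rose and 4 fell, with a median difference of 1.04 (10 higher and 0 lower under spike-in scaling, and 4 higher and 1 lower without naive replicates 2 and 3).

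Death ligand and granzyme inhibitor genes rose with it. Fasl, the ligand of the death receptor Fas, had 721, 387 and 855 in Ag-B7+IL12 cells, against 34.3, 81.3 and 58.0 in naive cells, a difference of 2.71 ± 0.35 (limma adjusted p = 1.14e-05). Serpinb9, which inhibits granzyme B inside the cell that makes it, had 10090, 3264 and 7975, against 584, 1156 and 768 in naive cells, a difference of 2.92 ± 0.38. The groups did not overlap for either gene, and Tnfsf10, the ligand TRAIL (1.42), Gzmd (1.55) and Ctsc, which activates progranzymes (1.27), were also called higher. Granzymes are close relatives whose probe sets may not tell members apart. Gzmc had 1264, 39.3 and 722, against 21.2, 61.9 and 21.1 in naive cells (2.48 ± 0.77), so that 1 Ag-B7+IL12 array lay among the naive ones, its other probe set had the opposite sign, and its call was lost without Ag-B7+IL12 replicate 1 or 3.

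The genes of killing did not move as one. Gzma, another granzyme, had 126, 30.3 and 110 in Ag-B7+IL12 cells, against 333, 818 and 483 in naive cells, a fall of 2.13 on the log2 scale (SE 0.48) that was not called under spike-in scaling or without naive replicates 2 and 3. Prf1, the pore-forming protein perforin, had 1157, 2159 and 1285, against 1831, 1069 and 905 in naive cells, and the groups overlapped (0.28 ± 0.40, limma adjusted p = 0.56). Srgn, the granule proteoglycan serglycin, and Lamp1 differed by -0.65 and -0.52 and were called lower.

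Interferon gamma, the cytokine by which effector CD8 cells activate macrophages, was the second largest rise. Ifng had 7015, 6161 and 8274 in Ag-B7+IL12 cells, against 74.9, 20.3 and 32.8 in naive cells, a difference of 6.37 ± 0.53 (82.9-fold, limma adjusted p = 9.89e-08). The naive values were close to the dim end of the arrays, so the fold depends on the pseudocount. Of 17 tested cytokines and chemokines, 6 rose and 6 fell, the share lower being close to the 34.0% over all genes, with a median difference of -0.25 (10 higher and 0 lower under spike-in scaling, and 3 higher and 2 lower without naive replicates 2 and 3).

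Among the others that rose were chemokines that draw dendritic cells, monocytes and T cells. Xcl1 (lymphotactin) had 8705, 1607 and 5928, against 353, 632 and 282 in naive cells, a difference of 3.31 ± 0.58. Ccl4 had 1111, 1667 and 4792, against 166, 285 and 156 (3.13 ± 0.82), and Ccl3 had 1562, 2825 and 7648, against 260, 985 and 539 (2.53 ± 0.87). Both were spread widely over the stimulated arrays. The call of Ccl4 was lost without naive replicates 2 and 3, and that of Ccl3 also without naive replicate 1 or Ag-B7+IL12 replicate 3. Lta, which encodes lymphotoxin alpha, rose by 3.21 ± 0.64, though its other probe set had the opposite sign.

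Ccl5, another chemokine, had 754, 121 and 698 in Ag-B7+IL12 cells, against 817, 1712 and 1698 in naive cells. This difference of -1.58 ± 0.54 was called lower and was 0.01 under spike-in scaling, and the call was lost without naive replicate 2, naive replicate 3 or Ag-B7+IL12 replicate 2. Tnf (-0.25), Il3 (-0.04) and Ltb (-0.31) were not called. Among the genes called lower were Tnfsf11, the ligand RANKL (-1.96), Flt3l, a growth factor of dendritic cells (-1.34), and Il16 (-1.36).

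**Figure D2:**
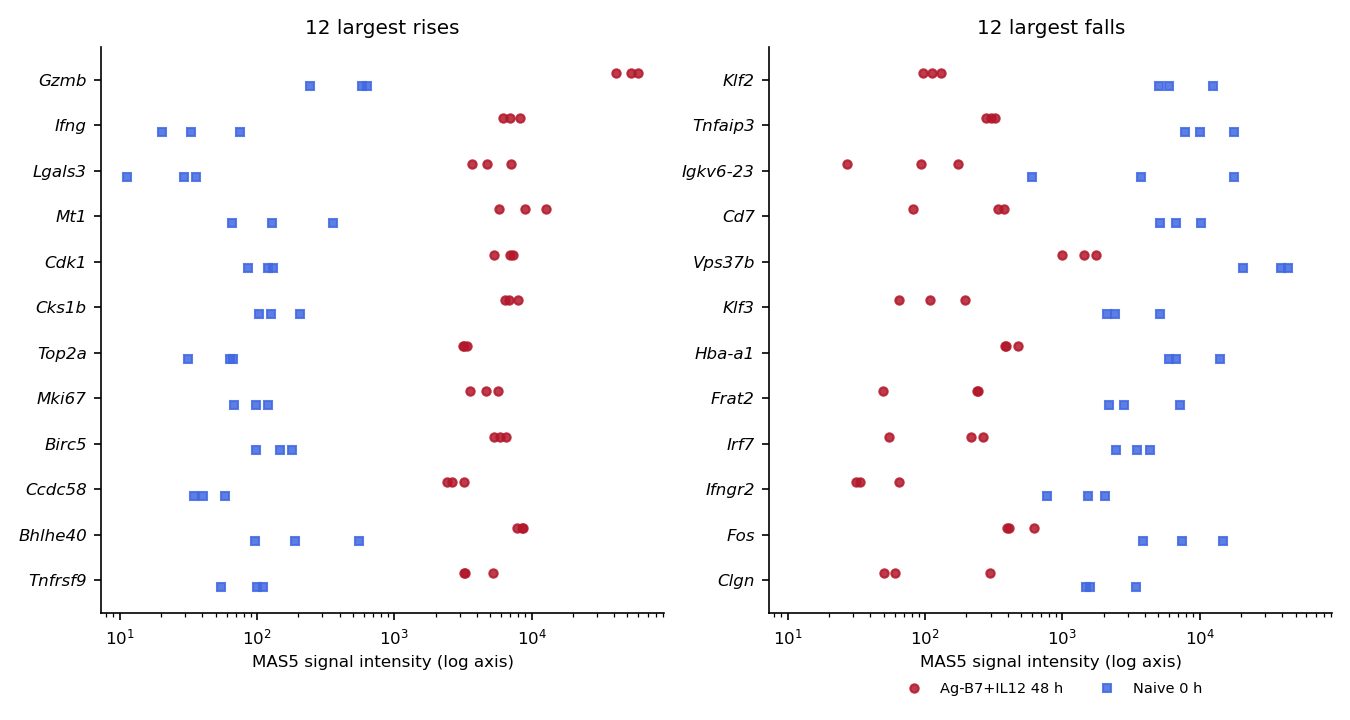
MAS5 intensity (log axis) on each of 3 Ag-B7+IL12 48 h arrays (red circles, upper row of each gene) and 3 naive arrays (blue squares, lower row) for the 12 largest rises and the 12 largest falls among genes whose arrays do not overlap. Gzmb lies at 41446 to 60005 in stimulated cells and 244 to 632 in naive cells, and Klf2 at 96.5 to 130 and 5071 to 12461; the smallest of the falls shown is that of Clgn (-3.75), and these falls kept their sign under spike-in scaling.

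The receptor through which IL-12 acts was itself raised. Il12rb2, the chain that is induced on activated cells and binds Stat4, had 2166, 2720 and 2721 in Ag-B7+IL12 cells, against 91.4, 86.9 and 614 in naive cells (3.48 ± 0.50, limma adjusted p = 2.69e-05). Il12rb1, which IL-12 shares with IL-23, had 768, 853 and 1305, against 219, 456 and 268 (1.52 ± 0.33). Neither chain overlapped between the groups. With Ag-B7 alone, Il12rb2 (2.10) and Il12rb1 (1.26) were also called higher than in naive cells, and neither was called between Ag-B7+IL12 and Ag-B7 cells. Stat4, in contrast, had 2678, 2287 and 1837, against 3057, 2016 and 4544 in naive cells, and did not pass the test (-0.43 ± 0.32, limma adjusted p = 0.257; 1.15 under spike-in scaling, adjusted p = 0.0451). Tyk2, one of the 2 kinases of this receptor, was not called (-0.54), and Jak2, the other, differed by -0.71 and was called lower, though its other probe set had the opposite sign.

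Of 26 tested genes of the IL-12 receptor, Stat4 and genes associated with them, 12 rose and 3 fell, with a median difference of 0.77 (19 higher and 0 lower under spike-in scaling). The list shares Gzmb, Ifng, Fasl, Serpinb9 and Prf1, which was not called, with the effector genes above. Il2ra, the high-affinity chain of the IL-2 receptor, had 2198, 1755 and 1328, against 12.2, 214 and 27.0 in naive cells (4.09 ± 0.46). Hopx, a homeodomain protein found in Th1 effector cells, had 13186, 10281 and 9442, against 2196, 1988 and 2115 (2.35 ± 0.25). Both rises were larger than the spread of either group. Il18r1, a chain of the IL-18 receptor, had 1844, 1588 and 1635, against 491, 425 and 931 (1.46 ± 0.41, limma adjusted p = 0.00642).

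The same list holds a convertase, a transcription factor and an inhibitor of cytokine signals. Furin, a proprotein convertase, had 6291, 4515 and 5907, against 2926, 3017 and 3575 (0.79 ± 0.20), and its call held in every alternative fit. Prdm1, the transcription factor Blimp-1, had 328, 512 and 390, against 130, 326 and 152, and although the groups just failed to overlap, its adjusted p was 0.0446 and the call was lost without any 1 of 5 arrays. Socs3, an inhibitor of cytokine receptors, had 885, 892 and 684 in Ag-B7+IL12 cells, against 2557, 2432 and 3962 in naive cells (-1.78 ± 0.28, not called under spike-in scaling). Irf1 (-1.43) was also called lower. Bcl3 had 476, 1402 and 445, against 1552, 359 and 2365, with wide overlap (-0.69 ± 0.53, limma adjusted p = 0.269).

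Receptors for other cytokines were mostly lower. Of 24 tested receptor chains, kinases, STAT factors and regulators, 5 rose and 13 fell, with a median of -0.54, but under spike-in scaling 12 rose and 3 fell. Ifngr2, a chain of the interferon gamma receptor, had 31.2, 33.5 and 64.8 in Ag-B7+IL12 cells, against 2055, 769 and 1546 in naive cells (-3.98 ± 0.43), and its partner Ifngr1 had 1571, 981 and 753, against 7092, 4455 and 7389 (-2.50 ± 0.32, not called under spike-in scaling). Both chains of the receptor for the cytokine that rose most were thus lower on every stimulated array.

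Il7r, the survival receptor of naive T cells, had 864, 1825 and 964 in Ag-B7+IL12 cells, against 7715, 3934 and 6602 in naive cells (-2.30 ± 0.38, not called under spike-in scaling). Il4ra had 1016, 1007 and 1553, against 12360, 4330 and 16314 (-2.99 ± 0.41), and Il6ra had 121, 61.2 and 215, against 1244, 1371 and 1402 (-3.05 ± 0.32). Il6st, the signalling chain of the IL-6 receptor (-2.18), Jak1 (-1.86) and Ifnar1, a chain of the type I interferon receptor (-1.22), were called lower as well. The 5 that rose were Il10ra (1.86), the phosphatases Ptpn6 (1.61) and Ptpn2 (0.68), the kinase Pim2 (1.49) and Il2rb (0.83). The call of Il2rb, whose arrays overlapped, was lost under quantile normalization and without naive replicate 2, Ag-B7+IL12 replicate 1 or Ag-B7+IL12 replicate 3.

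Several receptors of lymph node homing and gut retention fell. Ccr7, which brings naive cells into lymph nodes, had 2013, 3511 and 945 in Ag-B7+IL12 cells, against 17343, 9788 and 19736 in naive cells (-2.95 ± 0.42, limma adjusted p = 2.33e-05). S1pr1, which lets them leave again, had 144, 226 and 160, against 566, 1310 and 1079 (-2.15 ± 0.45, not called under spike-in scaling or without naive replicates 2 and 3). The integrin chains Itgae, which binds epithelial E-cadherin, and Itgb7, its partner, differed by -3.85 ± 0.41 and -2.48 ± 0.34, and the gut-homing receptor Ccr9 by -3.18 ± 0.45.

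Of 20 tested homing, adhesion and chemokine receptors, 2 rose and 11 fell, with a median of -1.19, and under spike-in scaling 7 rose and 3 fell. The 2 that rose were Itgb1 (1.77), the common chain of integrins for extracellular matrix, and Cd44, the hyaluronan receptor by whose low level the naive cells were selected. Cd44 had 756, 384 and 665, against 33.7, 125 and 125 in naive cells (2.23 ± 0.39), but both of its other probe sets had the opposite sign. Cxcr3, a chemokine receptor of effector cells, was not called (0.04).

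Several costimulatory and inhibitory receptors rose. Tnfrsf9, the costimulatory receptor 4-1BB, had 3210, 5281 and 3259 in Ag-B7+IL12 cells, against 110, 54.4 and 99.6 in naive cells (4.87 ± 0.39; its other probe set had the opposite sign). Tnfrsf4, the costimulatory receptor OX40, had 4228, 12745 and 7134, against 378, 255 and 332 (4.33 ± 0.57), and Lag3, an inhibitory receptor that binds MHC class II, had 3975, 8539 and 3576, against 84.1, 417 and 571 (3.90 ± 0.46). All 3 lay above the naive arrays without overlap. Ctla4 (2.64) and Pdcd1, the receptor PD-1 (2.32), which restrain T cells, and Klrk1, the activating receptor NKG2D (2.97 ± 0.54), were also called higher.

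Of the 20 tested costimulatory and inhibitory receptors and ligands, 10 rose and 3 fell, with a median of 0.64 (16 higher and 0 lower under spike-in scaling). The 3 that fell were Cd244a (-2.18), Tnfrsf1b (-1.49) and Cd86 (-1.48). The costimulatory receptors Cd28 (0.52), Icos (-0.09) and Cd27 (-0.17) did not pass the test.

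Several signalling genes of the T cell receptor were lower, among them Cd247, its zeta chain (-0.89; 0.69 under spike-in scaling). Cd3d (-0.11), Cd3g (-0.41), Cd3e (-0.55), Cd5 (0.00), Fyn (0.00) and Zap70 (0.50) were not called. Of 26 tested genes of the receptor and its signalling, 1 rose, the adaptor Lcp2 (1.16), and 10 fell, a share lower that is close to the 34.0% over all genes, with a median of -0.53, but under spike-in scaling 12 rose and 0 fell. Txk, a Tec-family kinase, had 963, 496 and 700, against 4867, 3189 and 7078 in naive cells (-2.70 ± 0.35), and Dgka, which removes diacylglycerol and so dampens receptor signals, had 2176, 1901 and 1953, against 17568, 8426 and 12334 (-2.58 ± 0.23). Neither gene overlapped between the groups, and neither was called under spike-in scaling.

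The coreceptor chains that define the cells were lower by less than 2-fold. Cd8a had 7361, 6459 and 6147 in Ag-B7+IL12 cells, against 14482, 9883 and 8015 in naive cells (-0.65 ± 0.20), and Cd8b1 had 11626, 12076 and 13556, against 31659, 19295 and 18894 (-0.86 ± 0.31). Both differences became positive under spike-in scaling, at 0.93 and 0.72, and both calls were lost under median centring and without naive replicate 1. In RNA of many cells, fewer cells of a type and less RNA per cell cannot be told apart.

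Transcription factors of lymphocyte fate differed in both directions. Bhlhe40, a helix-loop-helix factor needed for cytokine production in T cells, had 8507, 7810 and 8721 in Ag-B7+IL12 cells, against 190, 97.2 and 556 in naive cells (4.94 ± 0.49). Irf8 had 6278, 4715 and 5796, against 185, 399 and 406 (3.96 ± 0.39), and Irf4, which follows the strength of the receptor signal, had 4452, 7112 and 9564, against 783, 760 and 653 (3.12 ± 0.47). Batf, with which Irf4 binds DNA (1.62), Id2 (1.18), Xbp1 (1.06) and Hif1a, the factor of the hypoxia response (1.02 ± 0.17), were called higher too.

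Of 27 tested fate factors, 9 rose and 13 fell, with a median of -0.50, and under spike-in scaling 13 rose and 1 fell. Runx1 had 13.7, 28.7 and 44.9, against 438, 727 and 374 in naive cells (-2.86 ± 0.41). Ets1 (-2.42), Elf4 (-2.48), Gata3 (-1.90), Lef1 (-1.87), which keeps T cells stem-like, and Bcl6 (-1.06) were called lower. Eomes, a T-box factor of memory and effector CD8 cells, had 1091, 240 and 610, against 555, 513 and 718, with full overlap (-0.09 ± 0.55, limma adjusted p = 0.898; 1.49 under spike-in scaling).

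Genes of quiescence had the largest share of members called lower among the 26 lists. Klf2, which keeps naive T cells resting and drives S1pr1, had 130, 96.5 and 113 in Ag-B7+IL12 cells, against 12461, 5071 and 6006 in naive cells (-5.52 ± 0.48, 45.8-fold lower, limma adjusted p = 1.93e-07). The related factor Klf3 had 196, 64.9 and 108, against 5161, 2418 and 2123 (-4.23 ± 0.53). Slfn1, a Schlafen gene of resting thymocytes and T cells, had 506, 177 and 324, against 3674, 3447 and 4587 (-3.45 ± 0.28). Each stimulated array was several-fold below each naive array for all 3.

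Among 28 tested genes of naive and quiescent T cells the median was -1.63, 23 fell and 1 rose, and the 1 that rose was the CDK inhibitor Cdkn2d (0.80). The antiproliferative genes Btg1 (-3.13), Btg2 (-1.77) and Tob1 (-1.28, with the opposite sign in its other probe set), Ypel3 (-2.77) and Txnip, a brake on glucose uptake (-1.53), were among those called lower. Under spike-in scaling 7 members were lower and 3 higher, and the median was -0.05. Cdkn1b, the CDK inhibitor p27 (-0.95), and Bcl2, which protects naive cells from death (-0.13), were not called.

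Antiviral genes that type I interferon induces were mostly lower than in naive cells. Irf7, which amplifies interferon responses, had 54.7, 216 and 265 in Ag-B7+IL12 cells, against 4382, 2472 and 3493 in naive cells (-4.07 ± 0.36). Isg15, a ubiquitin-like protein, had 421, 51.7 and 84.7, against 2781, 2034 and 1885 (-3.63 ± 0.44), and Ifit3, which helps bind viral RNA, had 44.6, 31.1 and 43.7, against 1975, 739 and 775 (-3.67 ± 0.40). None of these groups overlapped. Irf7, Isg15 and Ifit3 were also called lower than in naive cells with Ag-B7 alone (-4.64, -2.14 and -3.73), and none was called between Ag-B7+IL12 and Ag-B7 cells. Of 30 tested members 21 fell and 2 rose, with a median of -1.68, and under spike-in scaling 9 fell and 8 rose.

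The 2 that rose were Gbp2, a GTPase also induced by interferon gamma (0.82), and Usp18, a protease that removes Isg15 from proteins and blocks the type I interferon receptor. Usp18 had 2359, 692 and 1054, against 736, 228 and 555 in naive cells. Its arrays overlapped (1.31 ± 0.44, limma adjusted p = 0.0185), and the call was lost without naive replicate 2 or Ag-B7+IL12 replicate 1. Neither gene was called without naive replicates 2 and 3.

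Promoter sequence adds a feature that the expression values do not hold. Promoter windows of 300 bases, from 250 before to 50 after the start of the gene in RefSeq's GRCm38.p6, were searched on both strands for fixed words, and 5056 of the 6279 tested genes had a window. The core of the interferon-stimulated response element, GAAANNGAA, was in 14 of the 23 antiviral members with a window (60.9%) and in 10 of the 15 that were called lower (66.7%), against 8.47% of tested genes and 9.76% of all 27025 genes. The 1 antiviral member with a window that was called higher also had the word. A match is a description of letters and not a binding site. The promoters of the antiviral genes Isg15 and Ifit3 are shown because they carry the word several times close together, with matches to either strand in capitals:
Isg15 (chr4:156200819-156200968, minus strand): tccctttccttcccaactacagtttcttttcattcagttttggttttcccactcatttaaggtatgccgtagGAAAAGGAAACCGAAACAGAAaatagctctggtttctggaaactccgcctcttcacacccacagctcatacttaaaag
Ifit3 (chr19:34583379-34583528, plus strand): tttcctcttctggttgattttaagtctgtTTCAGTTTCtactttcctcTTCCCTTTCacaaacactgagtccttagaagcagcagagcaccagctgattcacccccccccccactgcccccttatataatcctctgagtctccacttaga

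Class I antigen presentation was modestly lower. B2m, the common light chain of class I molecules, had 27104, 30698 and 23299 in Ag-B7+IL12 cells, against 61217, 65954 and 51389 in naive cells (-1.14 ± 0.17, and 0.44 under spike-in scaling). Of 13 tested members, 8 fell and 2 rose, with a median of -0.93, and under median centring 0 fell and 3 rose. H2-K1 (-0.98) and H2-D1 (-0.96), the class I heavy chains, Tapbp, the peptide-loading factor tapasin (-1.29; 0.30 under spike-in scaling), and Tap2 (-0.93) were among those called lower. Pdia3, a disulfide isomerase of peptide loading and of general protein folding, rose by 1.80 ± 0.32, and Psmb8, an immunoproteasome subunit, by 0.55.

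The genes of mitosis had the largest median rise of the 26 lists. Of 42 tested genes, 38 rose and 0 fell, with a median of 2.61. Cdk1, the kinase that drives entry into mitosis, had 6991, 5338 and 7283 in Ag-B7+IL12 cells, against 121, 131 and 85.6 in naive cells (5.37 ± 0.19, 41.4-fold, limma adjusted p = 7.61e-12). Cks1b, a subunit of Cdk complexes, had 6834, 8001 and 6414, against 205, 103 and 126 (5.25 ± 0.20). Top2a, which untangles chromosomes, had 3387, 3185 and 3207, against 31.3, 67.0 and 64.1 (5.06 ± 0.19). The stimulated arrays lay close together for these genes and the groups did not overlap.

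Mki67, the proliferation marker Ki-67, rose by 5.04 ± 0.25, though its other probe set had the opposite sign, and Birc5 (survivin), a chromosomal passenger, by 5.00 ± 0.23. Others span the stages of division: the spindle genes Tacc3 (4.64) and Kif11 (3.34), the checkpoint genes Bub1 (3.73) and Mad2l1 (3.62), the kinases Aurkb (3.43), Aurka (3.18) and Plk1 (2.02), the condensin subunits Ncaph (3.51) and Smc2 (2.71), and Cdc20, which starts anaphase (3.11). The 4 members that did not pass the test were Ube2c (-0.86), Smc4 (0.16), Pttg1 (-0.01) and Foxm1 (-0.50, with the opposite sign in its other probe set).

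The word TTTGAA, the cell cycle genes homology region through which DREAM and MuvB complexes hold mitotic genes silent in resting cells, was in the window of 24 of 34 mitosis members (70.6%) and of 23 of the 32 that rose (71.9%), against 14.8% of tested genes and 20.2% of all genes. The 4 mitotic genes with the largest rises all carried it, and their promoters are shown with the word, on either strand, in capitals:
Cdk1 (chr10:69352913-69353062, minus strand): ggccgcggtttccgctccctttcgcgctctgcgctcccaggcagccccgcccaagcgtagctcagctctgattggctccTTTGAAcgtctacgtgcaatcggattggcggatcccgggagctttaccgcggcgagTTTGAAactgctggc
Cks1b (chr3:89418292-89418441, minus strand): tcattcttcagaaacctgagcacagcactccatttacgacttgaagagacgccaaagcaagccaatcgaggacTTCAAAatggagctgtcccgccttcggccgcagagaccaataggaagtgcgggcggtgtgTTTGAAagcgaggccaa
Top2a (chr11:99024190-99024339, minus strand): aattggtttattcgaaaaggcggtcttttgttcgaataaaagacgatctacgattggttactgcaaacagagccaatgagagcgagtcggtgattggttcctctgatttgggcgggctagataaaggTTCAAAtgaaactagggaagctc
Mki67 (chr7:135716380-135716529, minus strand): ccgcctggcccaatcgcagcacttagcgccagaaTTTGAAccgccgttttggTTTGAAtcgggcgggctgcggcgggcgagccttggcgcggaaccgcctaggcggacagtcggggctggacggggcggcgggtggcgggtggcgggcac
Each sequence is the 150 bases that end just before the annotated start of the gene, read along its strand.

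Genes of DNA replication rose nearly as uniformly. Of 43 tested, 33 rose and 1 fell, the mismatch repair gene Msh6 (-1.08), with a median of 1.92. Rrm1 and Rrm2, the subunits of ribonucleotide reductase, which makes the building blocks of DNA, rose by 4.48 ± 0.38 and 3.94 ± 0.29. Rrm2 had 7434, 5567 and 7259 in Ag-B7+IL12 cells, against 207, 743 and 375 in naive cells. Rrm1 had 8554, 7103 and 7971, against 381, 96.7 and 684, and its other probe set had the opposite sign. Pcna, the sliding clamp of DNA polymerase, had 20868, 22030 and 22714, against 5562, 2039 and 7128 (2.32 ± 0.31).

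Origin licensing, primase and clamp loading genes were all represented among the rises: Orc6 (3.52 ± 0.46), Cdc6 (3.05), Mcm5 (2.67, with the opposite sign in its other probe set) and Mcm7 (2.16), Prim1 (3.35 ± 0.26) and Rfc4 (3.16). Gmnn (geminin), which prevents a second licensing in the same cycle, rose by 3.29. The 4 E2F words TTTCCCGC, TTTCGCGC, TTTGCCGC and TTTGGCGC were searched as 1 motif. At least 1 was in 13 of 39 replication members with a window (33.3%) and in 9 of the 29 that rose (31.0%), against 5.04% of tested genes and 2.6% of all genes. The 1 member with a window that was called lower also had a match. The motif was thus no more frequent among the members that rose than in the list. Among the members with a match were Cdc6, which loads the replicative helicase, and Mcm5, a part of that helicase, and both are shown with the match in capitals:
Cdc6 (chr11:98908001-98908150, plus strand): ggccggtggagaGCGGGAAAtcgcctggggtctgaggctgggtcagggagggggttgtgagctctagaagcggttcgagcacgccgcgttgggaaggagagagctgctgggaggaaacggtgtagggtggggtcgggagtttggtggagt
Mcm5 (chr8:75109359-75109508, plus strand): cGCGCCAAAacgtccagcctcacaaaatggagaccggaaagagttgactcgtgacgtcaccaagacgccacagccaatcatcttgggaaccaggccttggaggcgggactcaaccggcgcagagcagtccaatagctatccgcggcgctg

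Genes of the G1 phase were called higher more often than lower. Of 25 tested cyclins, CDKs, inhibitors and E2F factors, 15 rose and 3 fell, with a median of 0.79, and without naive replicates 2 and 3, 12 rose and 0 fell. Tfdp1, the dimer partner of E2F factors, had 14780, 16156 and 12093, against 817, 614 and 1050 in naive cells (4.06 ± 0.20). Ccne2, a cyclin of S phase entry, rose by 1.95 ± 0.39, and Ccnd2 and Ccnd3, the G1 cyclins of lymphocytes, by 0.98 ± 0.28 and 0.88 ± 0.18. Myc, the transcription factor of growth, had 4777, 3073 and 4152, against 696, 419 and 469 (2.82 ± 0.37). Genes that restrain the cycle were also among the rises, with Cdkn1a (1.25), Cdkn2d (0.80), Rb1 (1.35), Chek1 (2.06) and Wee1 (1.92). The inhibitors Cdkn1b (-0.95), Cdkn2a (-0.77) and Cdkn2c (-0.19) were not called. Ccnd1 (-1.35), E2f5 (-0.97) and Rbl2, a DREAM subunit of resting cells (-0.85), were called lower, and 0 members were called lower under spike-in scaling.

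**Figure D3:**
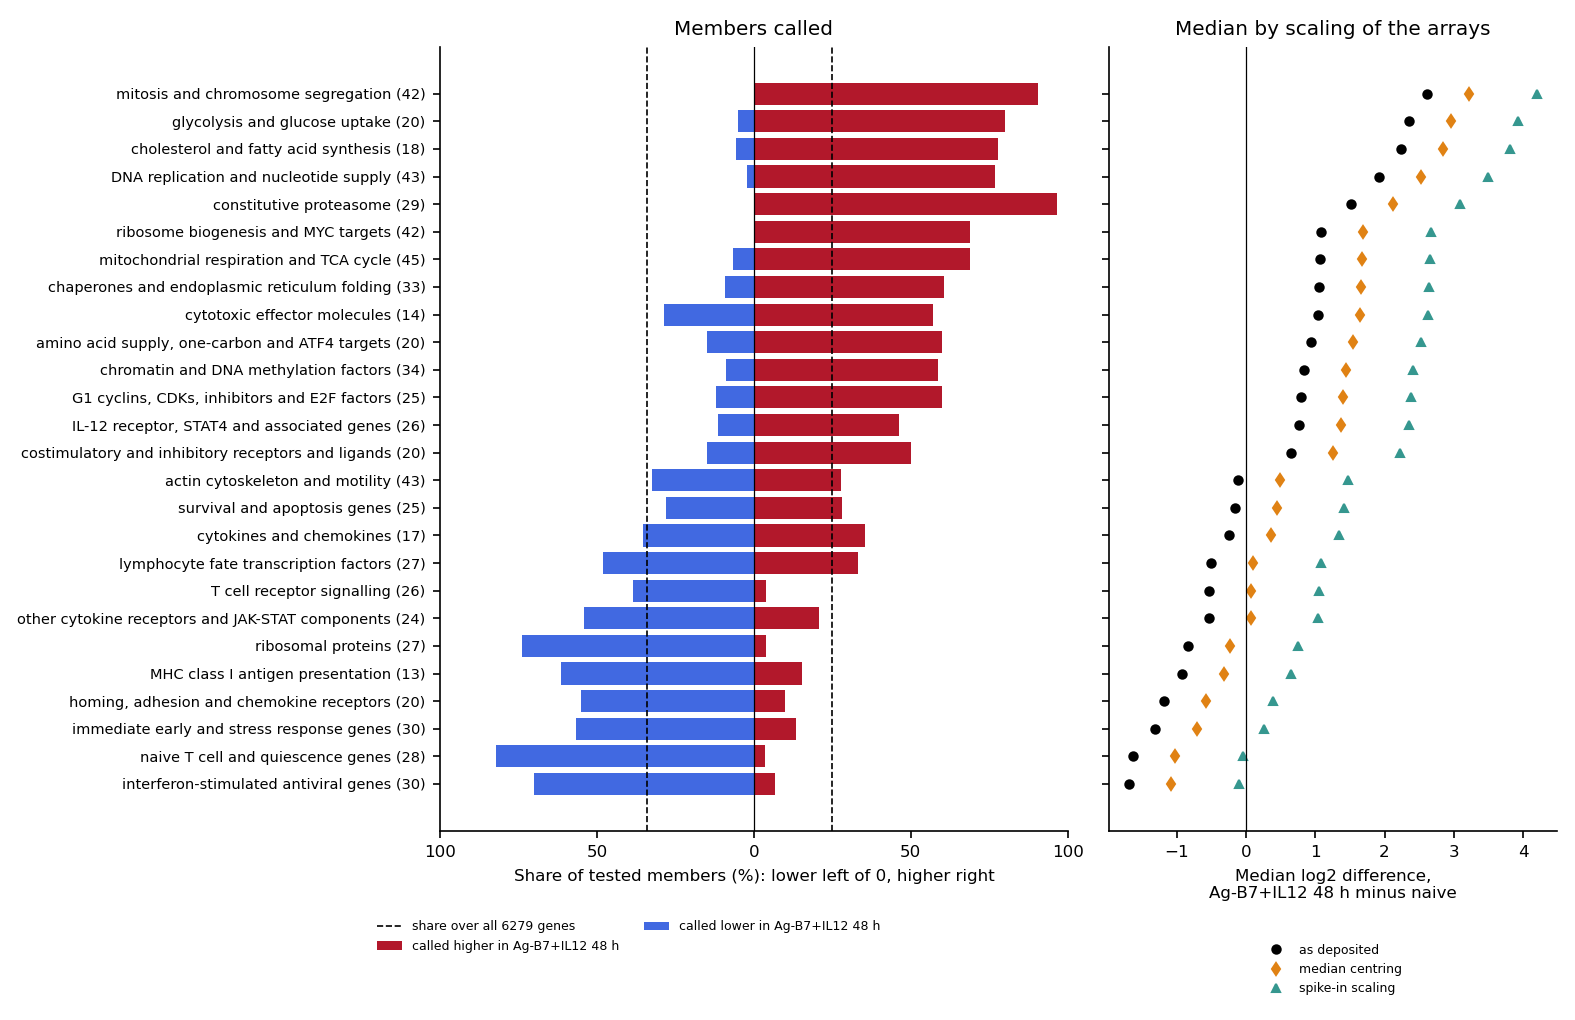
Left, share of the tested members (%) of each of 26 gene lists called higher (red, right of 0) or lower (blue, left of 0) in Ag-B7+IL12 48 h cells, with dashed lines at the shares over all 6279 genes (24.8% higher, 34.0% lower); right, the median log2 difference of each list for the values as deposited, after median centring and under spike-in scaling. Mitosis, replication, glycolysis, sterol synthesis and proteasome lists lie to the right under each scaling, while the lists with negative medians shift to or above 0 under spike-in scaling, except the naive (-0.05) and antiviral (-0.10) lists.

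Most tested genes of glycolysis rose. Of 20 tested genes of glucose uptake and breakdown, 16 rose and 1 fell, with a median of 2.35. Slc2a1, the glucose transporter Glut1, had 3637, 5227 and 3933 in Ag-B7+IL12 cells, against 404, 149 and 461 in naive cells (3.59 ± 0.35). Tpi1, triosephosphate isomerase, had 34271, 47046 and 36910, against 1689, 2550 and 1748 (4.28 ± 0.19). Pgam1 (3.71 ± 0.21), Pgk1 (3.19), Pkm (2.84), Aldoa (2.48) and Ldha, which makes lactate (2.43 ± 0.20), cover the lower part of the pathway.

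Isoforms of hexokinase, the first enzyme of glycolysis, differed in opposite directions. Hk2, the inducible hexokinase, had 5612, 6736 and 5833, against 305, 205 and 289 in naive cells (4.30 ± 0.31; its other probe set had the opposite sign), while Hk1, the constitutive one, was called lower (-0.97) and was not called lower under median centring or spike-in scaling, where 0 members fell.

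Mitochondrial genes rose by less. Of 45 tested genes of respiration and the TCA cycle, 31 rose and 3 fell, with a median of 1.07 (22 higher and 0 lower without naive replicates 2 and 3, and 42 and 0 under spike-in scaling). Uqcrq, a subunit of complex III, had 18192, 26824 and 24107, against 6878, 3606 and 5991 in naive cells (2.09 ± 0.22). The complex I subunits Ndufc1 (2.44 ± 0.23), Ndufab1 (2.35 ± 0.22) and Ndufv2 (2.08 ± 0.36), Sdhb of complex II (1.69) and the electron carrier Cycs (1.68 ± 0.22) were also higher. The 3 called lower were Ndufa1 (-1.67), Mdh1 (-1.22) and Cox6b1 (-1.18).

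Most tested genes of sterol and fatty acid synthesis rose. Of 18 tested, 14 rose and 1 fell, Mvk (-0.65, with the opposite sign in its other probe set; 0 fell under spike-in scaling), with a median of 2.23. Idi1, which isomerises the 5-carbon unit of sterols, had 11036, 7174 and 7674 in Ag-B7+IL12 cells, against 395, 522 and 494 in naive cells (4.05 ± 0.19). Scd2, a fatty acid desaturase, had 20739, 29264 and 15449, against 686, 1075 and 840 (4.55 ± 0.25). Hmgcs1 (2.87 ± 0.28), Sqle (2.67), Lss (2.87) and Cyp51 (2.35) extend the rise along the cholesterol pathway. Fdps rose by 3.93 ± 0.27, but 2 of its 3 other probe sets had the opposite sign.

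Amino acid and one-carbon genes that Atf4 controls followed. Of 20 tested, 12 rose and 3 fell, with a median of 0.94. Psat1, of serine synthesis, had 16804, 15802 and 18802, against 1256, 1512 and 1350 in naive cells (3.60 ± 0.17), and Bcat1, which breaks down branched-chain amino acids, had 5156, 4450 and 4414, against 128, 399 and 250 (4.05 ± 0.32). Asns, asparagine synthetase, rose by 2.31 ± 0.39 and the amino acid transporter Slc7a5 by 1.44. The 3 called lower were Got2 (-1.53), Slc38a2 (-1.15, with the opposite sign in 1 of 3 other probe sets) and Shmt2 (-0.99), and 0 were called lower under spike-in scaling.

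Machinery that builds ribosomes rose, while ribosomal protein genes did not. Of 42 tested ribosome biogenesis and Myc target genes, 29 rose and 0 fell, with a median of 1.08. Srm, spermidine synthase, had 7320, 6606 and 8811 in Ag-B7+IL12 cells, against 1364, 1527 and 1041 in naive cells (2.50 ± 0.23), and Nhp2, a small nucleolar RNP protein, had 12139, 11824 and 11969, against 3018, 1427 and 2133 (2.49 ± 0.23). The E-box CACGTG, the word that Myc and Max bind, was in the window of 10 of 34 members (29.4%) and of 7 of the 23 that rose (30.4%), against 12.1% of tested genes and 8.09% of all genes.

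The 27 tested ribosomal protein genes had a median of -0.84, with 20 lower and 1 higher, and under spike-in scaling 6 rose and 0 fell. Rplp0, a protein of the ribosomal stalk, had 59386, 96522 and 82415, against 113318, 140256 and 154849 in naive cells (-0.79 ± 0.21), and its sign turned under quantile normalization (0.06) and under spike-in scaling (0.79). The 1 that rose was Rpl13a (1.53). Without naive replicates 2 and 3, 12 of the 27 were called lower.

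The constitutive proteasome rose almost completely. Of 29 tested subunits, 28 rose and 0 fell, with a median of 1.51, and the remaining one was Psmd2 (0.42). Psmd7, a lid subunit, had 6427, 8700 and 7092, against 1765, 1332 and 1436 in naive cells (2.26 ± 0.20), and the catalytic subunit Psmb5 rose by 2.09 ± 0.25, though its other probe set had the opposite sign. Of 33 tested chaperones and folding enzymes, of the endoplasmic reticulum and of other compartments, 20 rose and 3 fell, with a median of 1.06. Hspa9, the mitochondrial Hsp70 (1.88 ± 0.23), 6 subunits of the chaperonin TRiC led by Cct8 (1.81), and Pdia6 (1.84 ± 0.19) were higher. Hspa1b, the stress-induced Hsp70, had 335, 290 and 969, against 1655, 4717 and 2133 (-2.36 ± 0.52), a call that was lost without naive replicates 2 and 3 and under spike-in scaling, where 0 of the list fell.

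Several immediate early genes were lower than in the uncultured naive cells. Fos, a subunit of AP-1, had 619, 393 and 406 in Ag-B7+IL12 cells, against 14894, 7474 and 3876 in naive cells (-3.90 ± 0.44). Tnfaip3, which encodes the NF-kappaB inhibitor A20, had 301, 279 and 323, against 17767, 7860 and 10030 (-5.02 ± 0.44), and Dusp1, a MAP kinase phosphatase, had 974, 738 and 799, against 14973, 4586 and 5535 (-3.05 ± 0.38). Naive replicate 1 was the highest array for all 3. The naive arrays are the only ones of cells that were not cultured.

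The 30 tested immediate early and stress genes had a median of -1.32, with 17 lower and 4 higher (3 lower and 10 higher under spike-in scaling). The 4 that rose were the metallothioneins Mt1 and Mt2, which bind zinc (5.45 ± 0.62 and 2.60), Gadd45g (2.48) and Ier3 (2.33). Mt1 had 12677, 9036 and 5764, against 66.0, 129 and 357 in naive cells. Egr1 (-0.85), Egr2 (-0.14) and Jund (-0.35) did not pass the test.

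Chromatin genes were called higher more often than lower. Of 34 tested, 20 rose and 3 fell, with a median of 0.84 (30 higher and 0 lower under spike-in scaling). Uhrf1, which brings maintenance methylation to new DNA, had 5253, 7720 and 5181 in Ag-B7+IL12 cells, against 338, 230 and 225 in naive cells (4.29 ± 0.23). Ezh2, the methyltransferase of Polycomb complex PRC2, had 4869, 6513 and 5241, against 865, 543 and 795 (2.85 ± 0.24), while its relative Ezh1, the form of non-dividing cells, was called lower (-1.36). Dnmt3a (0.97, with the opposite sign in its other probe set) and Hdac1 to Hdac3 (0.98, 1.46 and 1.49) were higher, and the class II deacetylase Hdac5 was lower (-1.29).

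Cytoskeletal genes split. Of 43 tested, 12 rose and 14 fell, close to the shares over all genes, with a median of -0.11, and under spike-in scaling 29 rose and 1 fell. Those that rose most were genes of calcium- and sugar-binding proteins kept on the list for motility. Lgals3, the lectin galectin-3, had 7070, 3710 and 4767, against 11.3, 35.9 and 29.6 in naive cells (6.15 ± 0.42). Its naive values lay below the 20th percentile of each naive array. Anxa2, a membrane-binding annexin, had 11067, 14490 and 10534, against 432, 144 and 745 (4.85 ± 0.44). S100a6 (3.86 ± 0.52) and Lgals1, galectin-1 (3.76 ± 0.45), also rose.

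Actb, beta-actin, had 639, 970 and 3707 in Ag-B7+IL12 cells, against 5545, 8374 and 14565 in naive cells (-2.68 ± 0.56, called neither under spike-in scaling nor without naive replicates 2 and 3), while Actg1 (-0.12) and Cfl1 (0.31) were not called. Myh9, the heavy chain of non-muscle myosin (-2.05), Lmna, of the nuclear lamina (-2.80), and Tln1, which links integrins to actin (-1.51, with the opposite sign in 1 of 2 other probe sets), were called lower.

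Survival and apoptosis genes showed no common direction, with 7 higher and 7 lower of 25 tested, near the shares over all genes (24.8% higher and 34.0% lower), and a median of -0.16. Apart from Birc5, the rises included the executioner caspase Casp6 (2.19 ± 0.39), the pro-apoptotic Bid (1.61) and Apaf1 (0.85). Bcl2l1, which encodes Bcl-xL, had 1786, 1633 and 1873, against 729, 1482 and 993 (0.75 ± 0.31, limma adjusted p = 0.0444), and its call was lost without any 1 of 5 arrays. Its other probe set had the opposite sign, and with the mean of both the difference was -0.20. Bcl2l11, which encodes the death factor Bim, was called lower (-1.28). Mcl1 was not called (-0.16). Under spike-in scaling 16 rose and 0 fell, and without naive replicates 2 and 3, 5 rose and 4 fell.

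The single arrays at 24 h and 72 h place the 48 h levels in time, with no replicate check. Ifng stood at 13398 at 24 h, at 6161 to 8274 at 48 h and at 3534 at 72 h, against 20.3 to 74.9 in naive cells. Cdk1 stood at 9248, 5338 to 7283 and 2400. Both genes were thus highest on the 24 h array and lower on the 72 h array than on any 48 h array. Srm likewise stood at 20024, 6606 to 8811 and 988, and Irf4 at 16463, 4452 to 9564 and 2869.

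Other genes were higher at the later times. Lgals3 stood at 1100 at 24 h, 3710 to 7070 at 48 h and 13541 at 72 h. Mt1 stood at 955, 5764 to 12677 and 31217, and Ctla2b at 86.3, 1315 to 4280 and 5104. Gzmb differed little over these times, with 31122, 41446 to 60005 and 41438.

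Several genes that were lower at 48 h stood higher on the 72 h array than on any 48 h array. Il7r stood at 279 at 24 h, 864 to 1825 at 48 h and 4998 at 72 h, where it lay within the range of the naive arrays (3934 to 7715). Vps37b, a subunit of the ESCRT-I sorting complex, stood at 371, 1001 to 1753 and 6741, below all naive arrays (20647 to 44184). Ccr7 stood at 1648, 945 to 3511 and 6499, and Itgb7 at 2073, 1982 to 3695 and 12356, within its naive range of 11179 to 19622. Klf2 stayed low, with 57.3, 96.5 to 130 and 170, against at least 5071 in naive cells.

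**Figure D4:**
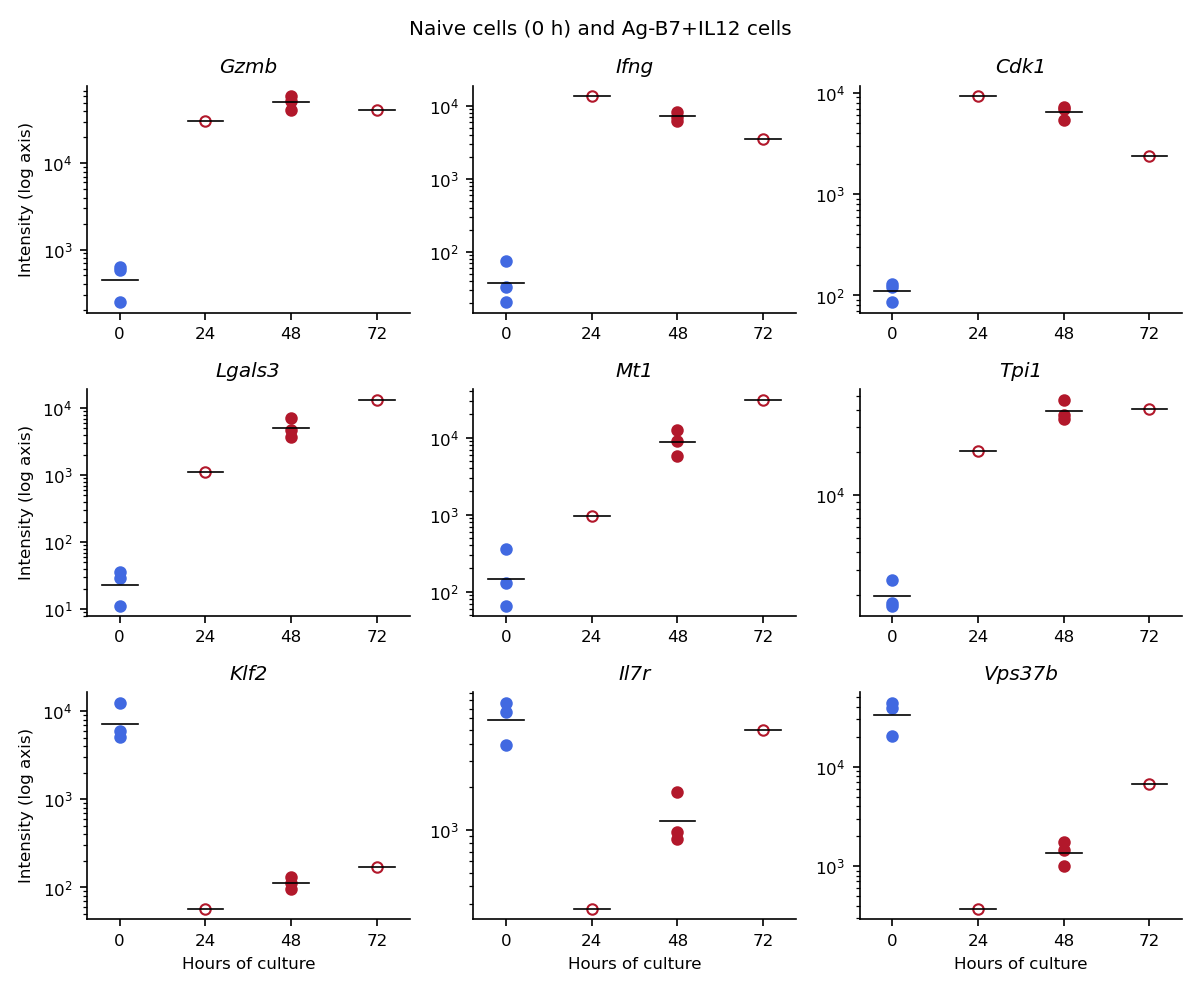
MAS5 intensity (log axis) of 9 genes in naive cells (0 h, blue, 3 arrays) and Ag-B7+IL12 cells (red) at 24 h (1 array, open), 48 h (3 arrays) and 72 h (1 array, open), with black bars at the geometric means. Ifng and Cdk1 are highest at 24 h, Lgals3 and Mt1 at 72 h, and Il7r at 72 h (4998) lies back within the naive range of 3934 to 7715 while Klf2 (170) does not.

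Few genes were called between Ag-B7+IL12 and Ag-B7 cells. Ag-B7 cells at 48 h, set against the same 3 naive arrays, gave 3876 called genes (61.7%), 1640 higher (26.1%) and 2236 lower genes (35.6%). Between Ag-B7+IL12 and Ag-B7 cells at 48 h, 39 of 6279 genes were called (0.621%), 24 higher (0.382%) and 15 lower (0.239%), and with 1 of the 7 arrays left out the count was 16 to 31. It fell below 26 without any 1 of the 3 Ag-B7+IL12 arrays (16 to 22) and without Ag-B7 replicate 1, 2 or 3 (19, 25 and 22). The genes called in all 7 of those fits were 8: Usp18, Ifng, Prnp, Hopx, Gem and Furin, which were higher, and Rgs10 and Iigp1, which were lower.

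Ifng had 6161 to 8274 in Ag-B7+IL12 cells and 100, 234, 470 and 1171 in Ag-B7 cells, a difference of 4.16 ± 0.49 (limma adjusted p = 0.000243). Usp18 had 692 to 2359 with IL-12 and 10.1 to 34.2 with Ag-B7 alone (4.20 ± 0.41, limma adjusted p = 3.26e-05), so that Ag-B7 cells lay below naive cells (228 to 736) and Ag-B7+IL12 cells did not. Hopx had 9442 to 13186 with IL-12 and 1226 to 2584 without (2.47 ± 0.24), and naive cells were at 1988 to 2196. Prnp, which encodes the prion protein, had 8379, 4267 and 3878 with IL-12 and 482 to 650 without (3.15 ± 0.36), and naive cells were at 449 to 1458. In Hopx and Prnp the rise over naive cells was therefore seen with IL-12 and not with Ag-B7 alone, where the differences from naive were -0.13 and -0.40.

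Il18r1 was higher with IL-12 than with Ag-B7 alone by 2.17 ± 0.38, Fasl by 1.67 ± 0.33 and Serpinb9 by 1.73 ± 0.35, and their calls were kept in 4, 1 and 2 of the 7 fits. With the replicate number as a block, under which the count was 35, Fasl was not called (1.64, limma adjusted p = 0.0891). Gzmb (0.93), Il12rb2 (1.38), Il2ra (1.09) and Bhlhe40 (1.22) were not called between these cultures. Of the mitosis, replication, glycolysis, sterol, ribosome biogenesis and proteasome lists, 0 members were called between Ag-B7+IL12 and Ag-B7 cells.

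Ag-B7+IFNa/b cells at 48 h, set against the same naive arrays, gave 3664 called genes (58.4%). Between Ag-B7+IL12 and Ag-B7+IFNa/b cells, 59 genes were called (0.94%), 18 higher (0.287%) and 41 lower (0.653%). Isg15 had 51.7 to 421 with IL-12 and 12842 to 18499 with IFNa/b (-6.36 ± 0.44, limma adjusted p = 4.14e-07), and Isg20 differed by -5.15 ± 0.46. Both fell below naive cells with IL-12 and were above them with IFNa/b. With Ag-B7 alone they were also called lower than in naive cells (-2.14 for Isg15 and -2.42 for Isg20). Neither was called between Ag-B7+IL12 and Ag-B7 cells. Iigp1, a GTPase of defence against intracellular parasites, was lower with IL-12 than with IFNa/b (-4.39 ± 0.40) and than with Ag-B7 alone (-2.95 ± 0.38), as was Slfn1 (-2.62 ± 0.28 and -1.21 ± 0.26). Hopx (2.30 ± 0.25), Prnp (3.61 ± 0.38), Furin (1.76 ± 0.20), Lgals3 (2.47 ± 0.42) and S100a6 (3.39 ± 0.52) were higher with IL-12 than with IFNa/b, whereas Ifng (1.68, limma adjusted p = 0.31) was not called between the 2 cytokines.

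**Figure D5:**
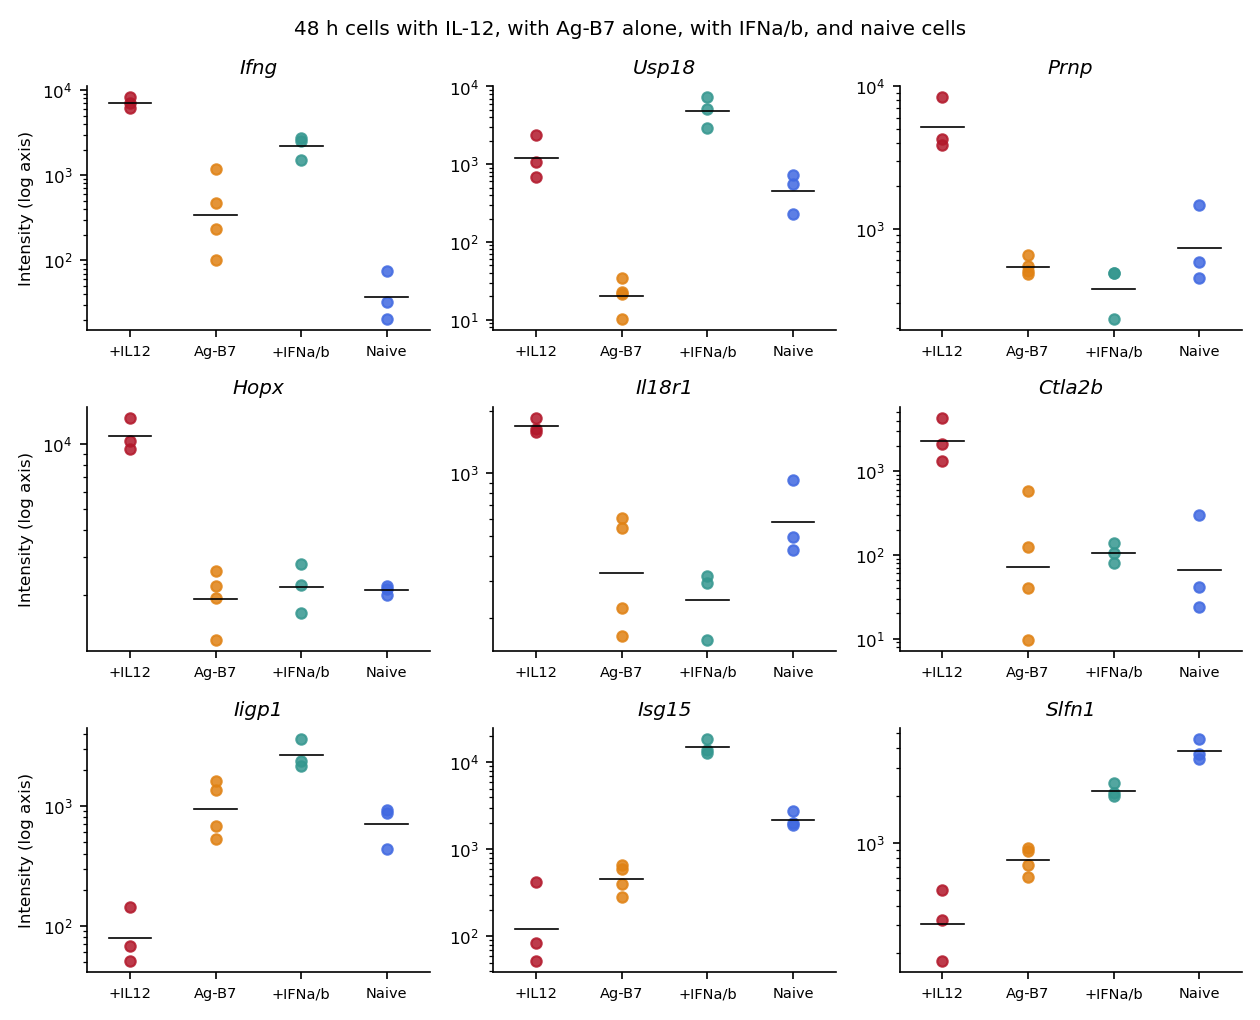
MAS5 intensity (log axis) of 9 genes on each array of Ag-B7+IL12 (3 arrays), Ag-B7 (4), Ag-B7+IFNa/b (3), all at 48 h, and naive cells (3), with black bars at the geometric means. Hopx and Prnp are high in Ag-B7+IL12 cells only among these 4 groups, Usp18 is at 692 to 2359 in Ag-B7+IL12 cells and 10.1 to 34.2 in Ag-B7 cells, and Isg15 has its lowest geometric mean in Ag-B7+IL12 cells and its highest with IFNa/b.

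Markers of other cell types were mostly lower in Ag-B7+IL12 cells. The 40 tested markers were of B, myeloid and NK cells, of CD4 cells and gamma-delta T cells, and of red cells, platelets and stroma. In Ag-B7+IL12 cells 30 were lower and 1 was higher, against 34.0% lower and 24.8% higher over all genes. The filter left out 26 of the 66 markers on the array. A marker could pass it on the 3 naive arrays alone, which favours markers that are lower. Among the 40, 25 were highest on naive replicate 2, which had the highest median intensity (507) and 20th percentile (115) of the 20 arrays. Their summed intensity was 16559 to 18254 on the Ag-B7+IL12 arrays and 57000 to 83655 on the naive arrays, and none of the 66 on the array was at 0. Hba-a1, a globin of red cells, had 477, 385 and 389, against 6780, 6025 and 13996 in naive cells (-4.18 ± 0.34), and Igkv6-23, a segment of the immunoglobulin kappa light chain, had 93.2, 27.0 and 173, against 597, 3725 and 17697 (-4.74 ± 0.81). Naive replicate 3 was by far the highest for the kappa segment.

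The 1 marker that rose was H2-Ab1, an MHC class II chain, with 793, 1688 and 682, against 77.7, 172 and 200 (2.44 ± 0.44), while H2-Eb1, another class II chain, was called lower (-1.41; 0.17 under spike-in scaling). Without naive replicates 2 and 3, 9 of the 40 were called lower and 1 higher. Of 11 tested genes of CD8 T cell identity, 1 rose (Thy1, 1.20) and 4 fell (Cd8a, Cd8b1, Cd247 and Lat), a share lower near the 34.0% over all genes. Of the 11, 8 were lowest among naive arrays on naive replicate 2. The summed intensity of the 11 was 75997 to 96604 on the Ag-B7+IL12 arrays and 78104 to 139668 on the naive arrays. The part of other cells in the genes that fell was not tested, nor was that of the brighter dim signals of the naive arrays in these markers.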

How the data were processed

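Total RNA of the 20 samples was labelled as biotin cRNA and hybridised to 1 Affymetrix array each, per the labels' protocols. The authors deposited linear MAS5 signal intensities of 12488 probe sets, with MAS5 named in the submitters' processing notes. The sources used here do not state its version, its scaling target or any detection calls. Each array's trimmed mean lay close to 1000, as tested on the deposited intensity values. The number of arrays limits the precision.

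Probe sets with 1 gene symbol (10833) were kept, and those with several (396), without an entry (1193) or serving as controls (66) were left out. Each of 8251 genes was represented by its brightest probe set on the mean log2 scale. Kept for testing were 6279 genes above the 40th percentile of the array on 3 or more of 13 arrays. Log2(intensity + 46.4) was fitted with limma 3.58.1 in R 4.3.3 over the 4 replicated groups (13 arrays, 9 residual degrees of freedom), with an intensity trend, Benjamini-Hochberg adjustment over all genes and a two-sided threshold of 0.05. The pseudocount is the median over arrays of the 20th percentile, and folds understate the change of dim genes. The p-values rest on 1 estimate of the spread between samples for each gene, shared by the 4 groups. The median SD was 0.442 for naive cells, 0.300 for Ag-B7, 0.273 for Ag-B7+IL12 and 0.241 for Ag-B7+IFNa/b cells. The shared estimate may therefore understate the spread of the naive arrays. On simulated data for Ag-B7+IL12 minus naive over 6279 genes, 6, 11, 44 and 50 of 50 genes changed by 1.5-, 2-, 4- and 8-fold were recovered, with 3 calls among 6079 unchanged genes. Few genes were changed in that simulation, whereas 58.8% were called in the data. The adjusted threshold depends on that share, so these rates do not carry over to this comparison.

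Same-numbered Ag-B7+IL12 and naive arrays did not deviate together for every number (r of 0.274, 0.0653 and -0.035 over genes). Ag-B7+IL12 and Ag-B7+IFNa/b arrays did so for none (-0.0215, -0.0129 and 0.0768). Same-numbered Ag-B7+IL12 and Ag-B7 arrays did for all 3 numbers (0.28, 0.279 and 0.276). A pairing of samples was not found in the labels. The alternatives were 2 other pseudocounts, no filter and a stricter one, quantile normalization, median centring, spike-in scaling, only the groups compared, no trend, array weights, a replicate block, the mean of all probe sets, each array left out, and naive replicates 2 and 3 left out together, the last chosen after seeing the data.

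Genes described in full are the 12 largest called rises and falls without overlap between arrays, up to 4 called members of each of 26 gene lists, a set of fixed genes, up to 10 genes in each direction that also differed from Ag-B7, and members of 8 marker lists. Other list members given as examples were picked after their values were seen. Members and lists were chosen with earlier results of these data known. Promoter sequences are from RefSeq, build GRCm38.p6.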

Additional observations from a re-analysis of the deposited data

Results flagged for a closer look

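Between Ag-B7+IL12 and Ag-B7 cells at 48 h, limma called 39 of 6279 genes (0.621%). Of these, 22 were among the named genes, 12 higher and 10 lower in Ag-B7+IL12 cells. Up to 10 genes in each direction were named because they were called in this comparison, so the count of 22 follows largely from that choice. The differences of both cultures from naive cells rest on the same 3 naive arrays, which cancel when the cultures are compared. The largest positive differences on the log2 scale were Usp18 (4.20), Ifng (4.16), Ctla2b (3.95), a homologue of a cysteine protease propeptide, and Prnp (3.15). Mmp10, a matrix metalloproteinase (2.61), Hopx (2.47), the retinoic acid binding protein Crabp2 (2.38), Il18r1 (2.17), Emp1 (1.99), Furin (1.99), Serpinb9 (1.73) and Fasl (1.67) followed. The negative differences were Iigp1 (-2.95), Il6ra (-1.53), Rgs10, a regulator of G protein signalling (-1.53), Ctss (-1.45), Ifi47 (-1.39), Itm2a (-1.30), Slfn1 (-1.21), Lgals3bp (-1.18), Dgka (-1.12) and Capg (-1.06).

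For 7 of the 22, the signs of the differences from naive cells were opposite with and without IL-12. In Usp18 and Furin both differences were called. Usp18 differed from naive cells by 1.31 in Ag-B7+IL12 cells and by -2.89 in Ag-B7 cells, and Furin by 0.79 and -1.19. For Hopx (-0.13), Ifi47 (0.06), Iigp1 (0.39), Il18r1 (-0.71) and Prnp (-0.40) the difference of Ag-B7 from naive cells was not called, so its sign carries no weight. Ctla2b had 4280, 1315 and 2085 in Ag-B7+IL12 cells and 572, 123, 40.6 and 9.54 in Ag-B7 cells, and its call was kept in 5 of the 7 fits that left out 1 array. Among the 22, the calls of Usp18, Ifng, Prnp, Hopx, Furin, Rgs10 and Iigp1 were kept in all 7 of those fits. Those of Fasl, Dgka and Lgals3bp were kept in 1 of 7, and those of Serpinb9, Slfn1, Itm2a and Il6ra in 2 of 7. Slfn1 kept its call under 5 of 12 other settings. With the replicate number as a block, which takes same-numbered samples as paired, Mmp10 (limma adjusted p = 0.0507), Lgals3bp (0.0763) and Fasl (0.0891) were not called.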

How the results depend on the processing

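Of 202 named genes, 180 were called against naive cells, 109 of these kept their call and direction under each alternative run, and 15 lost or turned it under spike-in scaling alone. The count of 3694 called genes was 2212 without naive replicates 2 and 3 and 3135 to 3819 with 1 array left out. The count at 2-fold or more was 1770 without both and 2341 to 3043 with 1 left out. Higher calls numbered 2402 under median centring, 3440 under spike-in scaling and 1374 to 1646 with 1 array left out. Lower calls numbered 920, 84 and 1761 to 2173 under the same settings and 1092 without naive replicates 2 and 3. Against Ag-B7 cells the count of 39 was 23 under median centring, 7 under spike-in scaling, 25 without the trend, 62 with array weights and 16 to 31 with 1 array left out. Its higher part was 5 under spike-in scaling, 40 with array weights and 9 to 18 with 1 array left out, and its lower part 6 under median centring, 2 under spike-in scaling, 7 without the trend and 4 to 13. Against Ag-B7+IFNa/b cells the count of 59 was 37 under spike-in scaling, 103 with array weights and 45 to 51 with 1 array left out. Its higher part was 9, 43 and 11 to 17, and 33 with only the groups compared, and its lower part 31 to 38.

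Under spike-in scaling the sign turned for B2m (0.44), Bcl2 (1.46), Blk (0.31), Camp (0.0234), Canx (0.42), Ccl5 (0.0054), Cd247 (0.69), Cd3d (1.47), Cd3g (1.17), Cd79a (0.28), Cd8a (0.93), Cd8b1 (0.72), Col1a2 (0.054), Csf1r (0.50), Eomes (1.49), H2-Eb1 (0.17), Ifi47 (0.25), Itgax (0.46), Klra3 (0.29), Lat (0.11), Pax5 (0.019), Pecam1 (0.41), Polr2a (0.15), Rplp0 (0.79), Rps24 (0.33), Sox13 (0.63), Stat4 (1.15) and Tapbp (0.30), by the construction of that scaling. Rplp0 also turned under quantile normalization (0.0552) and Bcl2l1 with the mean of all probe sets (-0.20), and the cause was not tested.

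With the replicate number as a block, 3795 genes were called against naive cells and 68 against Ag-B7+IFNa/b cells. In these 2 comparisons same-numbered arrays did not deviate together for every number. Against Ag-B7 cells, where they did, 35 were called, 24 of them among the 39. There Fasl (1.64, limma adjusted p = 0.0891), Lgals3bp (-1.03, 0.0763) and Mmp10 (2.54, 0.0507) lost their call, and Ighm (-1.26, 0.00155), Klf2 (-1.98, 0.0052) and S100a6 (1.59, 0.0434) gained one. The block changed no other named gene's call in the comparisons with naive and with Ag-B7 cells, and against Ag-B7+IFNa/b cells it changed the calls of Ifit3, Ifng, Ighm and Mt1.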

Other observations

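Most tested genes that are often used to scale transcript measurements differed between Ag-B7+IL12 and naive cells, as did 58.8% of all genes. Of 10 tested reference genes, 4 rose and 4 fell, against 24.8% higher and 34.0% lower over all genes. Under spike-in scaling 6 rose and 0 fell. Gusb, the lysosomal enzyme beta-glucuronidase, had 1623, 1841 and 1338 in Ag-B7+IL12 cells, against 334, 532 and 403 in naive cells, a difference of 1.82 (limma adjusted p = 5.72e-06). Hprt, an enzyme of purine salvage, had 14630, 11506 and 12517, against 5510, 3091 and 3707 in naive cells, a difference of 1.68 (limma adjusted p = 4.31e-06). The arrays of both genes did not overlap between the groups. Tubb5, a beta-tubulin (1.03), and Sdha, a subunit of succinate dehydrogenase (1.13), also rose, while Actb, B2m, Rplp0 and Polr2a fell. Ywhaz, a 14-3-3 protein, had 13713, 14078 and 18847, against 16394, 7934 and 17008 in naive cells, and did not pass the test (0.24, limma adjusted p = 0.456). Tbp, the TATA-binding protein, did not pass it either (0.67).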
